A study of Mus musculus with 5 samples.

Results

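The integrated stress response and the stress hormones of the liver were described through 10 genes, across diets, lobule zones and cell classes of mouse liver: the secreted stress hepatokines Fgf21 and Gdf15, the transcription factors Atf4, Atf3 and Ddit3 (CHOP), and the stress-response genes Trib3, Asns, Chac1, Sesn2 and Psat1. The members were taken by symbol, 10 of the 32285 features in the deposited matrices, and all 10 were found and tested in hepatocyte nuclei. Ddit3 is listed under 2 identifiers, of which the second held no UMI (unique molecular identifier, 1 counted RNA molecule) in any library. RNA of single nuclei came from livers of wild-type male C57BL6/J mice, 3 libraries from regular chow and 2 from a MASH diet (metabolic dysfunction-associated steatohepatitis) rich in fructose (20 kcal%), fat (40 kcal%) and cholesterol (2%), labelled AMYLIN liver NASH diet. Feeding began at 10 to 12 weeks of age and lasted 5 months, and nuclei of snap-frozen liver were sorted by FACS before library preparation. The labels do not say whether a library is 1 mouse or a pool, so that p-values measure the spread between these libraries. The labels name no transgene or deletion.

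The integrated stress response begins when kinases such as PERK, GCN2, PKR or HRI phosphorylate eIF2alpha, which lowers general protein synthesis while translation of ATF4 goes up. ATF4 then binds C/EBP-ATF response elements (CARE) near genes of amino acid synthesis and transport, and its targets include Asns, Psat1, Chac1, Sesn2, Trib3, Atf3, Ddit3 and Fgf21. The stressed liver releases both hormones: FGF21 acts through FGFR1 with the co-receptor beta-klotho, mainly in adipose tissue and brain, and GDF15 through GFRAL in the hindbrain. ATF4 is controlled largely at translation, a step that RNA counts do not measure.

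The promoter windows of the members were searched for the CARE core because it is the element that ties these genes to ATF4. In the RefSeq windows of 250 bases before the transcription start (GRCm38.p6), the core TGATGNAA was present on either strand in 4 of 10 members, against 3.91% of 27025 genes with a window. The 4 stretches follow, 5′ to 3′ on the strand of the gene, with the match in capitals (TTNCATCA is the same core read on the other strand).
Fgf21, chr7:45615612-45615639, minus strand: gacccccccaTTGCATCAtccgtccagg
Atf3, chr1:191183426-191183453, minus strand: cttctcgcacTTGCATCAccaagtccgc
Chac1, chr2:119351039-119351066, plus strand: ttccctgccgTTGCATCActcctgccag
Asns, chr6:7693215-7693242, minus strand: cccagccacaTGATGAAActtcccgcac
The same 8 letters TTGCATCA stood in the Fgf21, Atf3 and Chac1 windows, from base -139 to -132 relative to the start in Fgf21, -110 to -103 in Atf3 and -193 to -186 in Chac1. The Asns match lay closest to the start, from -23 to -16. No match was found in the windows of Gdf15, Atf4, Ddit3, Trib3, Sesn2 and Psat1. The cAMP response element TGACGTCA was in none of the 10 members and in 1.77% of genes, and the AP-1 letters TGANTCA were in 1 member, Ddit3, and in 7.82% of genes. These are matches of letters within short windows and were not tested against the expression values. Of these 4 members Fgf21 passed the diet test described below and Atf3, Chac1 and Asns did not, and differences between the genes were not tested.

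Hepatocyte nuclei were those with at least 2000 UMIs and at least 1 UMI of Hnf4a, a hepatocyte transcription factor. They numbered 4222, 6744 and 7006 in the chow libraries and 2684 and 2611 in the MASH libraries, 23267 of 57080 barcodes in all, and held 15125194 to 39316007 UMIs per library. The 7 hepatocyte markers summed to 11395 to 14519 CPM (UMIs scaled to an equal total per library) in chow and 6369 to 6755 in MASH, with 5 of 7 lower in both MASH libraries. Markers of other cell types also moved with the diet in these nuclei. The 10 stellate markers summed to 78.5 to 132 CPM in chow and 250 to 302 in MASH, the 10 macrophage markers to 44.9 to 61.3 and 133 to 234, and the 8 cholangiocyte markers to 58.4 to 109 and 213 to 263, with no listed marker at 0 in all libraries. Nuclei with 2 or more markers of another class made up 8.66 to 17.2% in chow and 37.6 to 46.6% in MASH, and results are given without them below where that changed a call. Libraries shared 23 to 48 barcodes per pair, at most 0.399% of the smaller library. Among the chow libraries replicate 3 stood apart, with the highest Ddit3, Atf3, Asns and Psat1 levels.

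Both hepatokines were higher in MASH hepatocyte nuclei, Fgf21 by 22.1-fold and Gdf15 by 3.46-fold. Of the other members only Trib3 (4.39-fold) and Sesn2 (2.03-fold) passed the same test. Atf3 (2.95-fold) and Psat1 (2.96-fold), both low in UMIs, were higher in both MASH libraries than in all chow libraries but did not pass. The RNAs of ATF4 itself and of CHOP did not pass the test. Of 15414 genes tested in hepatocyte nuclei, 13.7% were called (9.26% higher, 4.48% lower in MASH), and of the 10 members 4 were called, all higher. The median log2 difference over the 10 members was 1.29, against 0.00 over all genes tested. Levels are CPM scaled by TMM (trimmed mean of M values), and calls are by edgeR's quasi-likelihood test at a Benjamini-Hochberg adjusted p under 0.05 over all genes.

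**Figure D1:**
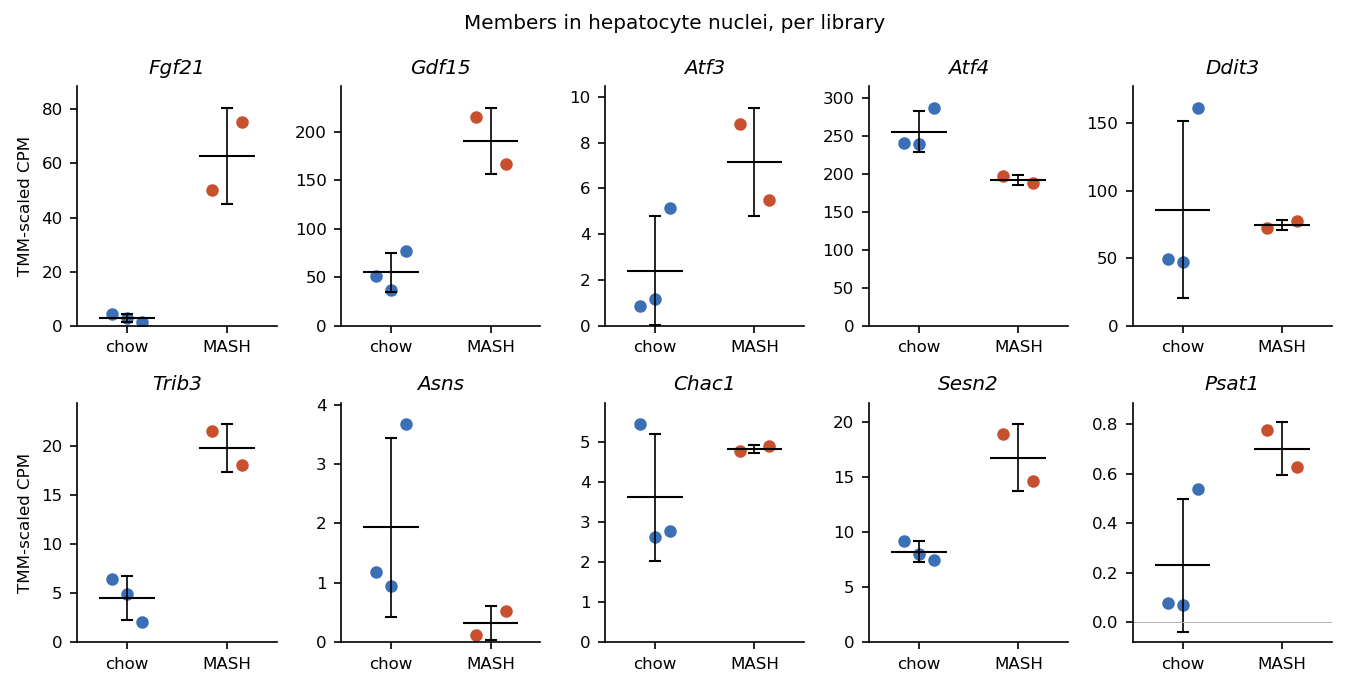
TMM-scaled CPM (y axis, linear, 1 scale per gene) of each member in hepatocyte nuclei of the 3 chow and 2 MASH libraries. Points are libraries, in replicate order from left to right, horizontal lines are means and bars are ±1 SD; both MASH libraries sit above all chow libraries for Fgf21, Gdf15, Atf3, Trib3, Sesn2 and Psat1 and below them for Atf4 and Asns.

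Fgf21 (chr7:45613886-45615490, minus strand, GRCm38), a fasting and stress hormone, stood at 4.45, 2.74 and 1.35 CPM in chow replicates 1 to 3 and at 50.3 and 75.3 CPM in MASH replicates 1 and 2. These levels rested on 116, 78 and 40 UMIs in chow and on 843 and 1567 UMIs in MASH. The lowest MASH library was far above the highest chow library. The means were 2.85 ± 1.55 CPM (SD, n = 3) in chow and 62.8 ± 17.7 CPM (SD, n = 2) in MASH, a log2 difference of 4.47 (SE 0.48, edgeR adjusted p 0.00367). It passed under all 19 alternatives run, at 4.07 to 4.94, and was 4.71 without the nuclei that carried markers of another class.

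Gdf15 (chr8:70629393-70632456, minus strand), a circulating cytokine of the TGF-beta superfamily, stood at 51.5, 36.6 and 77.1 CPM in chow and 215 and 167 CPM in MASH. Chow replicate 3 was the highest of the controls, and the diets did not overlap. The means were 55.1 ± 20.5 CPM (SD, n = 3) and 191 ± 33.9 CPM (SD, n = 2), a log2 difference of 1.79 (SE 0.34, edgeR adjusted p 0.0180). The call was lost without chow replicate 2 (1.52, adjusted p 0.0521), without MASH replicate 1 (1.59, adjusted p 0.134) and without MASH replicate 2 (1.97, adjusted p 0.0801).

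Of the transcription factors, Atf4 (chr15:80255184-80257541, plus strand) stood at 240, 240 and 287 CPM in chow and at 197 and 188 CPM in MASH. With TMM both MASH libraries were below all chow libraries, but the log2 difference of -0.41 (SE 0.26) did not pass (adjusted p 0.296), and it ranged from -0.51 to -0.07 over the alternatives. Without TMM the diets overlapped, at 263, 218 and 217 CPM in chow and 219 and 225 CPM in MASH. Ddit3, which encodes the pro-apoptotic factor CHOP, stood at 49.3, 47.6 and 161 CPM in chow and 72.4 and 77.7 CPM in MASH. Chow replicate 3 alone was high, and both MASH libraries fell between it and the other chow libraries. The log2 difference was -0.20 (SE 0.53, adjusted p 0.819) with that library and 0.57 (adjusted p 0.0918) without it. The difference was 0.63 with the replicate number as a block, which also sets that library aside, and 0.25 with library totals in place of TMM. Ddit3 overlaps the gene model of its second identifier, which held no UMI, on its own strand, so that the reads of the overlap are uncertain. It also overlaps Gm4189 and Mars on the opposite strand, and the UMIs were counted per gene by the authors. Atf3, an immediate stress factor, rested on 23, 34 and 153 UMIs in chow and 148 and 114 in MASH, or 0.882, 1.19 and 5.15 CPM against 8.82 and 5.48 CPM. The diets did not overlap by a narrow margin, and the log2 difference of 1.56 (SE 0.73) did not pass (adjusted p 0.174). It passed at 2.71 (adjusted p 0.0119) without chow replicate 3. The replicate block, which sets that library aside as well, gave 2.74 (adjusted p 0.00877) and is not separate support.

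Trib3 (chr2:152337422-152344032, minus strand), a pseudokinase that restrains ATF4 and insulin signalling, stood at 6.48, 4.96 and 2.09 CPM in chow and 21.5 and 18.1 CPM in MASH, or 4.51 ± 2.23 (SD, n = 3) and 19.8 ± 2.44 (SD, n = 2). The diets did not overlap, and the log2 difference was 2.14 (SE 0.45, edgeR adjusted p 0.0231). The call was lost without chow replicate 2 (2.15, adjusted p 0.0725), MASH replicate 1 (2.00, adjusted p 0.153) or MASH replicate 2 (2.26, adjusted p 0.113). Sesn2 (chr4:132492032-132510501, minus strand), a leucine sensor that inhibits mTORC1, stood at 9.24, 8.05 and 7.44 CPM in chow and 18.9 and 14.6 CPM in MASH, or 8.24 ± 0.92 (SD, n = 3) and 16.8 ± 3.03 (SD, n = 2). The chow libraries lay close together and below both MASH libraries. The log2 difference was 1.02 (SE 0.27, edgeR adjusted p 0.0442), just inside the threshold, and it passed under 11 of 19 alternatives. It did not pass without chow replicate 2 (0.95) or 3 (0.89) or MASH replicate 1 (0.82) or 2 (1.20), with the replicate block (0.95, adjusted p 0.0827) or with every nucleus thinned to 2000 UMIs (0.90, adjusted p 0.0757). Sesn2 overlaps the gene model Gm12981 on its own strand, so that the reads of the overlap are uncertain.

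The 3 remaining members were few in UMIs. Asns, asparagine synthetase and the textbook amino acid response gene, had 31, 27 and 109 UMIs in chow and 2 and 11 in MASH (1.19, 0.949 and 3.67 CPM against 0.119 and 0.529 CPM). Both MASH libraries were below all chow libraries, and its log2 difference of -2.52 (SE 0.89) missed the threshold (adjusted p 0.0942). It passed with no filter on low counts (-2.54, adjusted p 0.0300), with DESeq2 (-2.61, adjusted p 0.0215) and by Storey's q-value (0.0395). Chac1, a glutathione-degrading enzyme, stood at 5.45, 2.64 and 2.79 CPM in chow and 4.77 and 4.90 CPM in MASH, with overlap between the diets (log2 difference 0.42, SE 0.43, adjusted p 0.535). Psat1, of serine synthesis, rested on 2, 2 and 16 UMIs in chow and 13 and 13 in MASH. Its log2 difference of 1.57 (SE 0.89) did not pass (adjusted p 0.253), and without chow replicate 3 it was 3.10 (adjusted p 0.0309). Across the 10 members the TMM-scaled levels of the diets did not overlap in 8, of which 6 were higher and 2 lower, where 54.3% of all genes tested did not overlap (30.1% higher, 24.2% lower). Of the 2 lower members, Atf4 overlapped between the diets without TMM.

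The scaling matters for directions in these libraries. With library totals in place of TMM the median log2 difference of all genes was 0.33 (0.14 with upper-quartile scaling), and 83.6% of called genes were higher in MASH against 67.4% with TMM. Ddit3 was the only member whose direction turned, and its 0.25 lay below that median.

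The breadth of detection moved with the levels. With each nucleus thinned to 2000 UMIs, Fgf21 had a UMI in 0.640, 0.504 and 0.285% of nuclei in chow and 9.80 and 14.0% in MASH. Gdf15 had one in 9.57, 5.60 and 9.56% in chow and 29.1 and 25.9% in MASH. Trib3 was found in 1.37, 0.934 and 0.271% against 4.02 and 3.83%, and Sesn2 in 2.01, 1.30 and 1.16% against 3.32 and 3.29%. In these 4 the diets did not overlap. Over all 10 members the shares did not overlap in 6, with Atf3 also higher and Asns lower, where 51.5% of all genes tested did not overlap (39.3% higher, 12.2% lower), so the count of members is near the background. The exact two-sided permutation p was 0.1 for each of the 4, the smallest that 3 against 2 libraries allow. Atf4 was found in 33.1 to 40.6% of chow nuclei and 33.2 and 33.3% of MASH nuclei, and Ddit3 in 7.47 to 19.7% and 14.3 and 15.3%, both with overlap. Without thinning the shares were 0.542 to 2.42% and 19.5 to 30.5% for Fgf21, and 11.4 to 21.6% and 46.7 to 49.6% for Gdf15. At 2000 UMIs, nuclei with a UMI also held more of them in MASH: 1.25 and 1.36 UMIs of Fgf21 per positive nucleus against 1 to 1.05 in chow, and 1.57 and 1.63 of Gdf15 against 1.17 to 1.29, whereas Atf4 gave 1.28 to 1.31 against 1.25 to 1.33.

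Shares in another cell class were set beside these as a background. Endothelial-like nuclei (median 1060 to 1203 UMIs per MASH library) had a UMI of Fgf21 in 3.55% and of Gdf15 in 8.05% of 733 MASH nuclei. Hepatocyte nuclei of MASH thinned to 1000 UMIs had them in 4.81 and 7.74% for Fgf21 and 18.2 and 14.3% for Gdf15. For Trib3 the endothelial-like share of 2.05% was close to the 2.27 and 2.11% of hepatocyte nuclei at 1000 UMIs, while the stellate-like share was 0.938% of 2240 nuclei. For Sesn2 the endothelial-like share was 1.5% against 2.20 and 1.57%, and the stellate-like share 2.23%. In chow the endothelial-like shares of Trib3 and Sesn2, 1.37 and 1.16% of 952 nuclei, were above those of hepatocyte nuclei (0.157 to 0.758% and 0.457 to 0.734%). Shares of Trib3 and Sesn2 in hepatocyte nuclei were thus close to or below those in endothelial-like nuclei, and their calls rest on the summed levels. The endothelial-like nuclei were not thinned (median 960 to 1264.5 UMIs per chow library), so the depths are not equal. In MASH the Trib3 share of hepatocyte nuclei was above the stellate-like share and the macrophage-like 1.05% of 949 nuclei. For Sesn2 the macrophage-like share was 3.48%.

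Hepatocytes differ along the axis from portal to central vein, so the nuclei of each library were put in 3 zones of equal size by a score of 13 pericentral and 11 periportal markers that held no member. Oat, a pericentral gene kept out of the score, rose from the periportal to the pericentral side in all 5 libraries (for example from 37.9 to 346 CPM in chow replicate 1 and from 17.0 to 156 CPM in MASH replicate 1), and the periportal gene Sds fell (from 543 to 30.4 CPM and from 411 to 31.3 CPM). Fgf21 was higher with the MASH diet in every zone, and its slope along the axis turned with the diet. In chow it fell toward the central vein, and in MASH it rose.

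**Figure D2:**
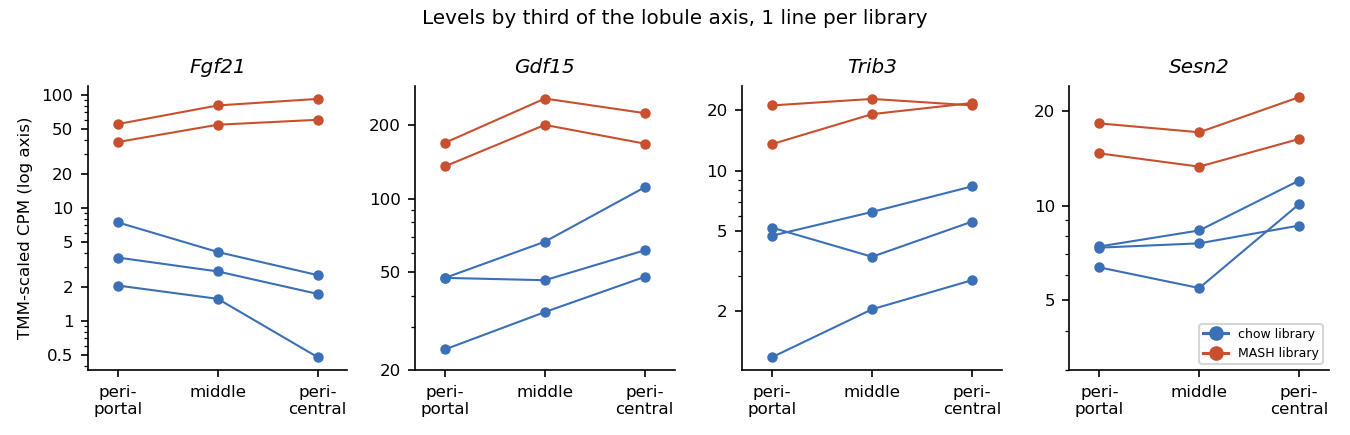
TMM-scaled CPM (log axis, 1 scale per gene) of Fgf21, Gdf15, Trib3 and Sesn2 in the periportal, middle and pericentral nuclei of each library, 1 line per library. The Fgf21 lines run down in the 3 chow libraries and up in the 2 MASH libraries, Gdf15 peaks in the middle nuclei of both MASH libraries, and MASH lines lie above chow lines in every panel.

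Fgf21 stood at 7.41, 4.06 and 2.53 CPM in the periportal, middle and pericentral nuclei of chow replicate 1, at 3.62, 2.73 and 1.73 CPM in replicate 2 and at 2.05, 1.56 and 0.477 CPM in replicate 3. In MASH replicate 1 it stood at 38.2, 54.2 and 60.0 CPM and in replicate 2 at 55.0, 80.4 and 91.8 CPM. Each chow library was highest on the periportal side and each MASH library on the pericentral side. The chow values of replicate 3 rested on 19, 16 and 5 UMIs, against 209 to 637 UMIs in the zones of the MASH libraries. Of 14603 genes tested, 24.9% differed between pericentral and periportal nuclei in chow and 15.3% in MASH (6.77% higher and 8.53% lower on the pericentral side), and for 5.23% that difference itself changed with diet. The pericentral minus periportal log2 difference of Fgf21 was -1.45 (SE 0.21, edgeR adjusted p 4.77e-05) in chow and 0.70 (SE 0.09, adjusted p 4.81e-05) in MASH. The interaction was 2.15 (SE 0.23, adjusted p 3.33e-05), it passed in all 10 alternatives at 1.88 to 2.71, and Fgf21 was the only 1 of 9 members tested in which it passed. It was 2.10 without nuclei that carried markers of another class and 2.38 without nuclei over 5% mitochondrial UMIs. The diet difference of Fgf21 was 3.42 (SE 0.49, adjusted p 0.00852) in periportal nuclei, 4.6 (SE 0.41, adjusted p 0.00320) in middle nuclei and 5.61 (SE 0.53, adjusted p 0.00406) in pericentral nuclei, and in the periportal nuclei the call was lost without MASH replicate 1 (3.66, adjusted p 0.0554) or 2 (3.12, adjusted p 0.0787).

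Gdf15 leaned to the pericentral side in chow and peaked in the middle in MASH. It stood at 47.5, 46.5 and 61.6 CPM from periportal to pericentral in chow replicate 1, at 24.3, 34.5 and 48.0 CPM in replicate 2 and at 47.5, 66.8 and 111 CPM in replicate 3. In MASH replicate 1 it stood at 169, 256 and 223 CPM and in replicate 2 at 136, 200 and 168 CPM. The pericentral nuclei were the highest in every chow library and the middle nuclei in both MASH libraries. The pericentral minus periportal log2 difference was 0.88 (SE 0.11, adjusted p 7.88e-06) in chow and 0.35 (SE 0.11, adjusted p 0.0441) in MASH, where it was lost without MASH replicate 1 (0.32, adjusted p 0.390) or 2 (0.42, adjusted p 0.229) and without nuclei carrying markers of another class (0.22, adjusted p 0.479). The interaction of -0.52 (SE 0.16) did not pass (adjusted p 0.0653), but without chow replicate 1 it was -0.77 (adjusted p 2.26e-05). The diet difference was 1.92 (adjusted p 0.0150) in periportal nuclei, 2.22 (adjusted p 0.0112) in middle nuclei and 1.42 (SE 0.37, adjusted p 0.0539) in pericentral nuclei. The last passed without chow replicate 3 (1.84, adjusted p 0.00830), and the replicate block, which also sets that library aside, gave 1.85 (adjusted p 0.00116). Without MASH replicate 1 or 2 the first was 1.76 (adjusted p 0.134) or 2.07 (adjusted p 0.0904) and the second 2.03 (adjusted p 0.103) or 2.38 (adjusted p 0.0745).

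**Figure D3:**
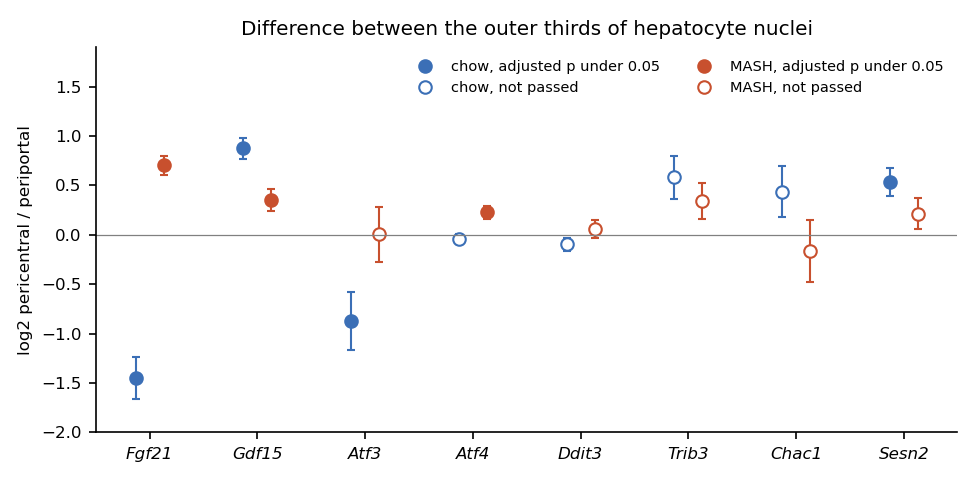
Log2 difference between pericentral and periportal hepatocyte nuclei (y axis, positive toward the central vein) for 8 members in chow and MASH, from the fit over all genes. Bars are ±1 SE and filled points passed an adjusted p of 0.05; Fgf21 lies at -1.45 in chow and 0.70 in MASH, on opposite sides of 0.

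Among the other members, Atf3 leaned periportal in chow (-0.87, SE 0.29, adjusted p 0.0378), and lay at 0.00 in MASH. Its chow call held in 5 of 10 alternatives and was lost, for example, without chow replicate 2 (-0.68, adjusted p 0.137) or 3 (-1.07, adjusted p 0.198). Its interaction of 0.88 did not pass, but was 2.14 (adjusted p 0.0188) without nuclei carrying markers of another class. Atf4 lay at -0.04 in chow and was higher on the pericentral side in MASH (0.23, SE 0.06, adjusted p 0.0197), a call lost without MASH replicate 1 (0.23, adjusted p 0.266) or 2 (0.26, adjusted p 0.193) or without nuclei carrying other markers (0.20, adjusted p 0.144). Its interaction of 0.27 did not pass (adjusted p 0.0611), though it did in 4 of 10 alternatives. Sesn2 was higher on the pericentral side in chow (0.53, SE 0.14, adjusted p 0.00890), a call lost without chow replicate 1 (0.45, adjusted p 0.0744) or 3 (0.46, adjusted p 0.0677), and its 0.22 in MASH did not pass (adjusted p 0.403). Trib3 (0.58 in chow, adjusted p 0.0653, and 0.34 in MASH, adjusted p 0.245) and Ddit3 (-0.10 and 0.06) did not pass in either diet, though Trib3 did in chow without chow replicate 2 (0.94, adjusted p 0.0156) or without nuclei carrying other markers (0.69, adjusted p 0.0181). In all, 4 of 9 members tested were called in chow, 2 higher and 2 lower on the pericentral side, and 3 in MASH, all higher. Of all genes tested 24.9% were called in chow (13.3% higher and 11.7% lower) and 15.3% in MASH (6.77% higher and 8.53% lower). The diet difference passed in 4 of 8 members in periportal nuclei (14.7% of 13562 genes, 9.84% higher and 4.84% lower), 3 of 8 in middle nuclei (8.75% of 13679, 5.84% higher and 2.91% lower) and 2 of 9 in pericentral nuclei (9.19% of 13518, 5.93% higher and 3.25% lower). All these members were higher. Trib3 rose in all 3 zones, by 2.21 (adjusted p 0.0392), 2.39 (adjusted p 0.0231) and 1.96 (adjusted p 0.0311) from periportal to pericentral, each lost without chow replicate 2 (2.51, 2.3 and 1.93), MASH replicate 1 (1.86, 2.26 and 1.98) or MASH replicate 2 (2.49, 2.51 and 1.94). Sesn2 rose in periportal nuclei (1.21, adjusted p 0.0308), a call lost without the same 3 libraries (1.20, 1.04 and 1.35), and its 1.1 and 0.92 in the middle and pericentral nuclei did not pass, though without chow replicate 1 the middle value did (1.22, adjusted p 0.0486).

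Nuclei with and without a UMI of Gdf15 were then compared within each library, after thinning every nucleus to 2000 UMIs, to ask whether stress genes were found in the same nuclei. Over all 5 libraries Fgf21 and Atf3 passed the test given below, and Trib3 passed within the MASH libraries but not over all 5. Gdf15 was detected in 782 and 677 nuclei of MASH and in 404, 378 and 670 of chow. In MASH replicate 1, 93 nuclei carried both Gdf15 and Fgf21 where 76.6 would if they were independent, and in replicate 2 there were 121 against 94.6. That is, Fgf21 was found in 11.9% of Gdf15-detected nuclei and 8.94% of the others in replicate 1 (odds ratio 1.38), and in 17.9 and 12.6% in replicate 2 (odds ratio 1.51). Trib3 was found in 5.88 against 3.26% (odds ratio 1.86) and 5.47 against 3.26% (odds ratio 1.73), and Atf3 had odds ratios of 2.12 and 2.08 on 18 and 10 shared nuclei. Ddit3 and Gdf15 shared 144 nuclei against 112 expected in replicate 1 (odds ratio 1.56) and 107 against 104 in replicate 2 (odds ratio 1.05), Atf4 gave 1.26 and 1.03, and Sesn2 gave 1.19 and 1.33. Chac1 lay below 1, at 0.566 and 0.692. Asns shared 1 nucleus with Gdf15 in each library and Psat1 none. Of Gdf15-detected MASH nuclei, 13 and 11.1% had 2 or more of the 8 members other than the hepatokines, against 7.52 and 8.07% of the other nuclei. In chow these shares were 7.18, 4.76 and 10.6% against 5.95, 3.64 and 8.27%, higher in Gdf15-detected nuclei of all 3 libraries. Only 2, 3 and 1 chow nuclei held both hepatokines, against 2.58, 1.91 and 1.91 expected, too few to show a difference.

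**Figure D4:**
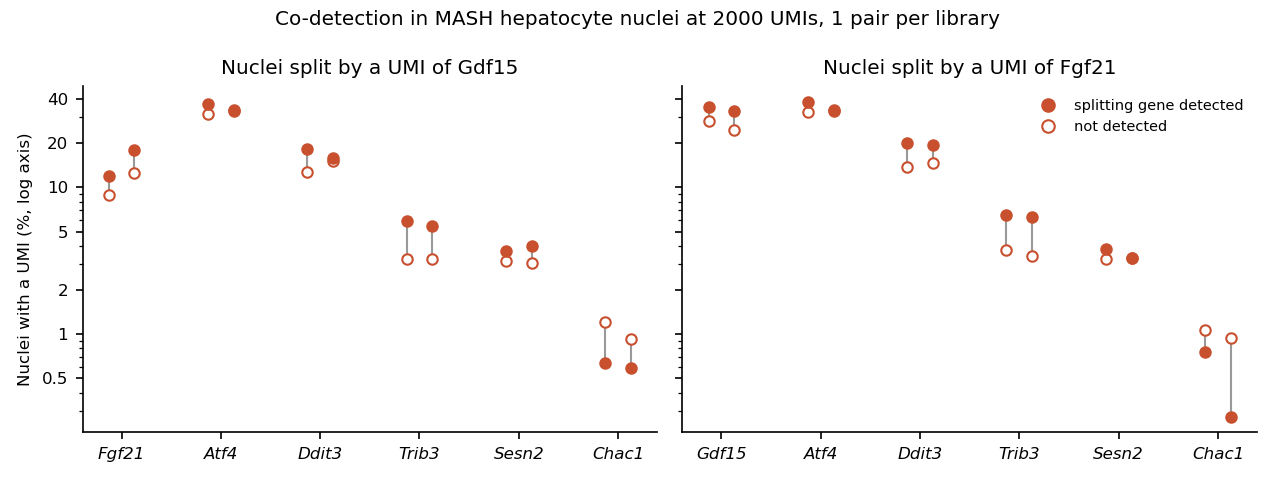
Share of MASH hepatocyte nuclei with a UMI of each member (log axis, %), at 2000 UMIs per nucleus, in nuclei with (filled) and without (open) a UMI of Gdf15 (left) or Fgf21 (right). Each joined pair is 1 of the 2 MASH libraries; the filled points lie above the open ones for the partner hepatokine and Trib3 in both libraries and below them for Chac1.

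With the 5 libraries as pairs of sums, 165 of 12165 genes (1.36%, 0.756% higher and 0.6% lower) differed between Gdf15-detected and other nuclei, among them 2 of the 7 members tested. Fgf21 was higher by 0.48 (SE 0.12, edgeR adjusted p 0.0252) and Atf3 by 1.44 (SE 0.30, adjusted p 0.00253). Trib3 (0.64, adjusted p 0.103), Ddit3 (0.25, adjusted p 0.128) and Atf4 (0.08, adjusted p 0.765) did not pass. The Fgf21 call depended on both MASH libraries (0.44 without either, adjusted p 0.297 and 0.496), and it was not made at 1000 UMIs (0.73, adjusted p 0.0543), without nuclei carrying markers of another class (0.50, adjusted p 0.0772) or in the pericentral and middle nuclei alone (0.36, adjusted p 0.416). Zone moves with this split: in MASH, 39.0 and 39.1% of Gdf15-detected nuclei lay in the middle zone, against 31.0 and 31.3% of the others. The Atf3 call was not made with another random seed for the thinning (0.96, adjusted p 0.147), without MASH replicate 1 (1.42, adjusted p 0.0600), at 1000 UMIs (1.72, adjusted p 0.0520) or without nuclei carrying other markers (1.21, adjusted p 0.138). Within MASH alone, where 1.28% of genes were called, Fgf21 (0.51, adjusted p 0.0103), Atf3 (1.51, adjusted p 0.0179) and Trib3 (0.82, adjusted p 0.0304) passed, and within chow, where 0.584% were, no member did. The within-MASH calls rest on 2 libraries and are given without alternatives. Over the 5 libraries Trib3 passed in 0 of 11 alternatives. The difference between the diets was called in 25 genes (0.206%, 0.074% higher and 0.132% lower) and no member, so a diet-specific association was not shown.

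The genes that led the Gdf15 split were Dusp8, a MAP kinase phosphatase (1.13, adjusted p 0.0110), the MYB-family factor Mybl1 (1.11, adjusted p 0.00116), the receptor tyrosine kinase Ephb2 (0.96, adjusted p 0.000808), the mTORC1 inhibitor Ddit4 (0.92, adjusted p 0.0267) and the retinoic acid synthesis gene Aldh1a3 (0.81, adjusted p 0.0215). Of 32 ATF4 targets beyond the members, 2 were higher in Gdf15-detected nuclei, Nupr1 (1.21, adjusted p 0.0457) and Ddit4, and none lower. Of 12 targets of p53 tested, 7 were higher and none lower, led by Plk2 (0.73), Cdkn1a (0.61), Zmat3 (0.55) and Ccng1 (0.53). Of the 6 disease-associated hepatocyte markers that the study named beside Gdf15, 4 were higher, Nrg1 (0.74), Klf6 (0.65), Cdkn1a (0.61) and Jun (0.40). The study chose that list on these samples, so it is not independent evidence.

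The converse split by Fgf21 was thinner, with 263 and 365 detected nuclei in MASH and 27, 34 and 20 in chow. Gdf15 was found in 35.4% of Fgf21-detected nuclei and 28.5% of the others in MASH replicate 1, and in 33.2 and 24.8% in replicate 2. Trib3 gave odds ratios of 1.81 and 1.92 and Ddit3 of 1.60 and 1.41, whereas Chac1 gave 0.864 and 0.426. Of Fgf21-detected MASH nuclei, 14.8 and 11.5% held 2 or more of the 8 other members, against 8.51 and 8.41% of the rest. In chow, on the few detected nuclei, these shares were 3.70, 8.82 and 10% against 6.08, 3.68 and 8.49%, so that chow replicate 1 went the other way. The scaling moved this split: the median of all genes was -0.10 with TMM and 0.01 with library totals over the 5 libraries, and 0.57 and 0.15 for the difference between the diets. Over 5 libraries 8 of 12043 genes (0.0664%) were called, all lower, and no member was: Gdf15 was 0.26 (adjusted p 0.938), Trib3 0.83 (adjusted p 0.520) and Ddit3 0.39 (adjusted p 0.781). With library totals in place of TMM Gdf15 passed (0.40, adjusted p 0.0371). Within MASH 20 genes (0.166%) were called and no member, with Gdf15 at 0.41 (SE 0.11, adjusted p 0.0738), Ddit3 at 0.56 (adjusted p 0.112) and Trib3 at 0.86 (adjusted p 0.5). The genes leading there were Cdkn1a (0.81, adjusted p 0.0291), the hepatokine Tsku (0.68, adjusted p 0.0110), the ATF4 target and sister factor Atf5 (0.63, adjusted p 0.000192), the oxidative stress gene Osgin1 (0.55, adjusted p 0.0287) and Gramd1c (0.46, adjusted p 0.0350), a sterol transporter. Inhbe, another ATF4 target and hepatokine, was also higher (0.44, adjusted p 0.0287). The split by diet was called in 21 genes (0.174%), all higher as was the median of all genes, and no member.

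Outside hepatocytes the members were sought in nuclei with no Hnf4a UMI and at least 3 markers of 1 class. Over all libraries Gdf15 and Fgf21 were lower in every class tested than in hepatocyte nuclei, and Atf3 was higher in macrophage-like nuclei. In chow alone Fgf21 averaged 3.71 CPM in endothelial-like nuclei, on only 3 UMIs, against 2.79 CPM in hepatocyte nuclei. Against endothelial-like nuclei, 4 of 9 members passed, all higher in hepatocytes. They were Gdf15 at 1.51 (SE 0.21, adjusted p 7.79e-07), Fgf21 at 1.20 (SE 0.39, adjusted p 0.0128), Ddit3 at 0.77 and Atf4 at 0.67. Of all genes 41.5% passed, 22.7% on the hepatocyte side and 18.8% on the other. The count of members was thus near the background. Against stellate-like nuclei, 43.3% of genes passed (22.3% were lower and 20.9% higher in hepatocytes), among them 6 of 8 members, all higher in hepatocytes, with Gdf15 at 1.87 (SE 0.22, adjusted p 7.60e-06), Trib3 at 1.79, Fgf21 at 1.12 (SE 0.30, adjusted p 0.00631), Ddit3 at 0.68, Atf4 at 0.54 and Chac1 at 1.22. The Chac1 call (adjusted p 0.0498) was lost without chow replicate 1 (1.31), MASH replicate 1 (1.21) or MASH replicate 2 (1.06). Against macrophage-like nuclei, 4 of 8 members passed, where 36.1% of all genes did (19.7% on the hepatocyte side and 16.4% on the other). Fgf21 (1.79), Trib3 (1.96) and Gdf15 (1.08, adjusted p 0.00201) were higher in hepatocytes and Atf3 lower (-1.95, SE 0.46, adjusted p 0.000716), the last on 26 and 22 macrophage-like UMIs in the MASH libraries. The Fgf21 calls against all 3 classes were lost without MASH replicate 2 (0.97, 1.04 and 1.18), and those of Trib3 and Atf3 against macrophage-like nuclei as well (1.69 and -1.65), and that of Fgf21 against endothelial-like nuclei also without chow replicate 1 (1.11, adjusted p 0.0503).

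RNA of hepatocyte genes was also counted in the other classes. In MASH the hepatocyte genes Cps1, Apob and Fgb reached 48.7 to 65.0%, 46.7 to 79.5% and 61.4 to 99.0% of their hepatocyte CPM in stellate-like nuclei. Fgf21 reached 36.8 and 54.3% there and Gdf15 23.0 and 30.8%. In endothelial-like nuclei Fgf21 reached 37.4 and 45.7% and Gdf15 33.8 and 39.8%, and Cps1 55.4 and 78.6%. Atf3 stood at 269 and 552% of the hepatocyte CPM in macrophage-like nuclei, where the 3 hepatocyte genes stood at 40.5 to 98.7%.

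**Figure D5:**
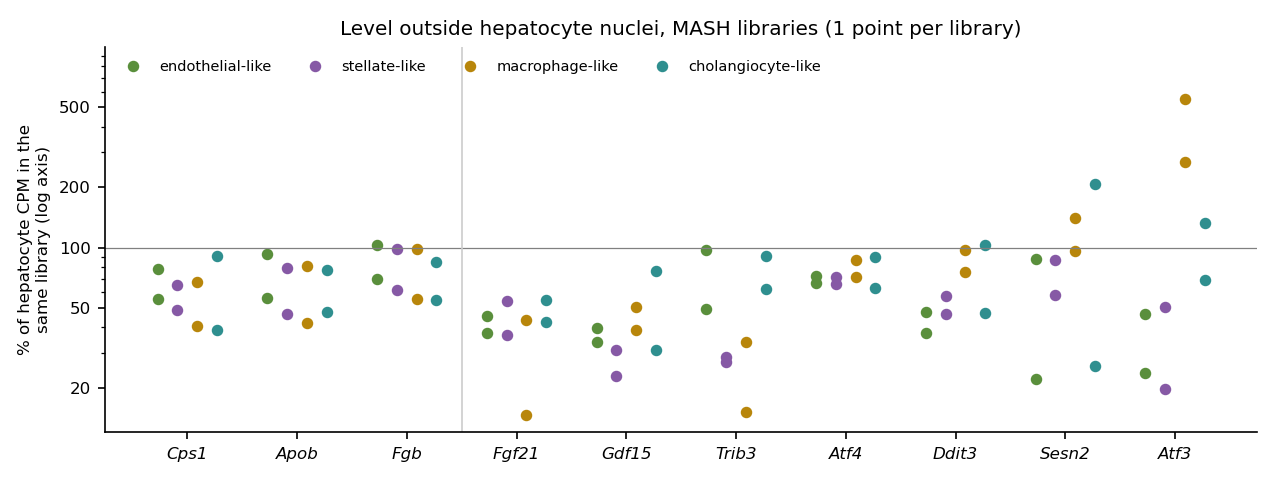
CPM of each gene in 4 non-hepatocyte classes of the MASH libraries, as a percentage of its CPM in hepatocyte nuclei of the same library (log axis, 1 point per library, horizontal line at 100%). The 3 genes left of the vertical line are hepatocyte genes; Fgf21 and Gdf15 lie below 100% in every class, whereas Atf3 of macrophage-like nuclei lies at 269 and 552%.

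The diet difference was also seen outside hepatocytes. In stellate-like nuclei 1.49% of 8699 genes were called and 2 of 4 members tested. Fgf21 had no UMI among 1380687 in 996 chow nuclei, which allows a share of nuclei with a UMI (not of nuclei expressing the gene) of up to 0.301%, and 47 and 70 UMIs in MASH (30.2 and 33.2 CPM). Set against a floor of 3 UMIs over the chow group, it was at least 14.6-fold higher. With no UMI in any chow library, Fgf21 entered the test through its MASH counts alone. Its call was not made without MASH replicate 2. Gdf15 was higher by 2.23 (SE 0.46, adjusted p 0.0347), a call lost without chow replicate 1 (1.88), 2 (2.48) or 3 (2.29) or MASH replicate 1 (1.73). In endothelial-like nuclei (0.958% of 7721 genes) and macrophage-like nuclei (1.7% of 4294, 0.629% higher and 1.07% lower) no member passed, with Gdf15 at 1.94 (adjusted p 0.0527) and 1.71 (adjusted p 0.234). Fgf21 had 0, 3 and 0 UMIs in endothelial-like nuclei of chow and 11 and 22 in MASH (3.53, SE 1.02, adjusted p 0.151). In macrophage-like nuclei it had no UMI among 424458 in chow and 24 and 8 in MASH, at least 2.65-fold higher against the same floor, and was not tested there. Gdf15 passed in endothelial-like nuclei without chow replicate 3 (2.01, adjusted p 0.0442). With the replicate block, which also sets that library aside, Gdf15 passed there (2.09, adjusted p 0.0203) and in macrophage-like nuclei (2.32, adjusted p 0.0291). The part of free hepatocyte RNA in the diet differences outside hepatocytes was not tested.

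The lists of further genes are read against the 9.26% higher and 4.48% lower among all genes tested. Of 36 measured ATF4 targets beyond the members, 4 rose with the MASH diet and 2 fell, shares near that background, with a median log2 difference of -0.17 against 0.00 over all genes. The lipoprotein receptor Vldlr (3.80, SE 0.73, adjusted p 0.0188), the stress cofactor Nupr1 (2.77), the cationic amino acid transporter Slc7a1 (2.44) and the hepatokine Inhbe (1.81) rose, and the tRNA synthetases Tars (-1.34) and Aars (-1.19) fell. Inhbe stood at 81.0, 57.5 and 41.1 CPM in chow and at 221 and 199 CPM in MASH. Of 15 eIF2alpha kinases, phosphatases and eIF2B genes, 1 rose, Eif2ak3, which encodes PERK (1.16, adjusted p 0.0432), and 1 fell, Eif2b4 (-1.05), with a median of 0.05.

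In the other branches of the unfolded protein response the genes that passed were all lower. Of 25 ATF6 and XBP1 branch genes none rose and 2 fell, the ERAD ligase gene Syvn1 (-2.24) and Xbp1 (-1.94), and 23 of 25 lay below 0 with a median of -1.05. Xbp1 stood at 558, 732 and 1133 CPM in chow and at 213 and 209 CPM in MASH, so that chow replicate 3 was again highest. Of 8 mitochondrial stress genes none rose and 3 fell, Hspd1 (-1.52), Hspe1 (-1.44) and Clpp (-1.30). Of 13 immediate-early and heat shock genes, which can respond to handling, none rose and 2 fell, Hsph1 (-1.88) and Dnajb1 (-1.49), with a median of -1.27. Their part in the member results was not tested. Of 13 p53 targets 4 rose and none fell, Phlda3 (4.23), Tnfrsf10b (3.2), Eda2r (3.05) and Plk2 (2.04), with a median of 0.81. Of the 6 disease-associated markers the study named, which are no independent evidence since they were chosen on these samples, 3 rose, Nrg1 (4.19), Anxa2 (4.15) and Sox4 (4.13).

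Among receptors and upstream factors of both hormones, such as Klb, the Fgfr genes, Ppara and Trp53, none of the 11 tested passed in either direction (median -0.29). Of 16 other hepatokines none rose and 4 fell: the iron hormone Hamp (-2.56), Fetub (-2.37), the growth factor Igf1 (-1.96) and the lipase inhibitor Angptl4 (-1.64). Inhbe, listed among the ATF4 targets, is also secreted and rose with Fgf21 and Gdf15.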

How the data were processed

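Single-nucleus 3′ RNA libraries (10x Genomics v3) of 3 chow and 2 MASH livers were analysed. The authors mapped reads with Cell Ranger 8.0.1 against GRCm38 without counting introns (per the submitters' processing notes and the study's methods), and deposited raw UMI counts per gene and barcode, unnormalised and without cell types or doublet calls. Totals per library were 35612373 to 49137377 UMIs. No doublet caller was run here; nuclei with 2 or more markers of another class were left out as an alternative.

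Groups came from the sample titles. UMIs were summed per library over hepatocyte nuclei (at least 2000 UMIs, at least 1 Hnf4a UMI), over zone classes (3 equal classes by the mean z score of pericentral minus periportal markers), over nuclei split by a UMI of Gdf15 or Fgf21 after thinning to 2000 UMIs, and over classes with at least 300 genes, no Hnf4a UMI, at least 3 markers of the class and under 2 of any other. Each fit ran over all genes with edgeR 4.0.16 (R 4.3.3) by the quasi-likelihood test, with TMM, filterByExpr and Benjamini-Hochberg adjustment, two-sided, called at an adjusted p under 0.05. Zone, split and class fits had library as a block. Shares were compared by exact two-sided permutation tests over all arrangements of the libraries. Class CPM were not TMM-scaled. Odds ratios are descriptions.

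The alternatives were another scaling (RLE, upper quartile, library totals), DESeq2 1.42.0, Storey's q-values, other filters on genes and nuclei, other thinning, a replicate block and each library left out; library totals, the zone fits without mixed or high-mitochondrial nuclei and the block in other classes were chosen after seeing the data. In simulated counts with known changes the diet test on 15069 genes recovered 76.0% of 4-fold and 6.00% of 2-fold changes. The split test on 11350 genes recovered 97.0% of 2-fold changes. The spread between sums was assumed, equal for all genes and wider for diet than for the split, and changes were placed only in genes with higher counts. At that assumed spread 2-fold diet differences were mostly missed, and detectability in these libraries themselves was not measured. Replicate 3 occurs in chow only. The replicate block thus takes the diet difference from replicates 1 and 2, much as leaving out chow replicate 3 does. Intervals and floors cover counting error only.

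The members and gene lists were chosen with earlier results of these data known. All members are named; of each list, the up to 4 called genes with the largest change in each direction; of each split, the 5 called genes with the largest rise among those with at least 5 CPM; Inhbe in the Fgf21 split, and Cps1, Apob and Fgb, were named after their values were seen. Ensembl identifiers of 99.8% of features matched GENCODE M21 (GRCm38), which gave coordinates. Promoter windows are from RefSeq, and Mars1 of the ATF4 list was not found under that symbol.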

Additional observations from a re-analysis of the deposited data

Results flagged for a closer look

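One result differed between groups by a direct test. The pericentral minus periportal log2 difference of Fgf21 was 2.15 higher in MASH than in chow (SE 0.23, edgeR interaction test, adjusted p 3.33e-05), with all 3 chow libraries falling toward the central vein (by 1.55, 1.07 and 2.10) and both MASH libraries rising (0.65 and 0.74). Leaving out any 1 library gave 2.08 to 2.38. Median UMIs per nucleus rose from the periportal to the pericentral zone in all 5 libraries. They went from 4632 to 5577, 3777 to 3984 and 4587 to 5002 in chow. In MASH they went from 4808 to 4882 and 5245 to 5627. The part of depth in the result was not tested beyond the scaling of the sums. After thinning to equal depth, 51.9% of the 27 Fgf21-detected nuclei of chow replicate 1 were periportal and 3.70% pericentral. These shares were 50 and 5% of 20 nuclei in chow replicate 3. In chow replicate 2 both were 29.4% of 34 nuclei, so that library showed no periportal lean. In MASH they were 21.7 and 39.5% in replicate 1 and 25.2 and 40% in replicate 2. Groups of 3 and 2 libraries are too small for a test of single outlying libraries.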

How the results depend on the processing

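With each library left out in turn, called genes ranged from 216 to 3298 for diet in hepatocyte nuclei (2117 with all), 55 to 2962 in periportal (1992), 84 to 2646 in middle (1197) and 80 to 2169 in pericentral nuclei (1242), 121 to 1078 for the zone by diet interaction (764), 540 to 2792 for zone in MASH (2233), 82 to 165 for the Gdf15 split (165) and 2 to 46 by diet (25), 3 to 21 for the Fgf21 split (8) and 1 to 48 by diet (21), and 20 to 151, 31 to 164 and 12 to 105 for diet in endothelial-like (74), stellate-like (130) and macrophage-like nuclei (73). Called members ranged from 1 to 5 (4), 0 to 5 (4), 1 to 4 (3), 1 to 4 (2), 1 to 3 (1), 1 to 3 for zone in MASH (3), 2 to 4 for zone in chow (4), 0 to 2 for the Gdf15 split (2), 0 to 1 in endothelial-like (0), 1 to 1 in stellate-like nuclei (2) and 2 to 5 for hepatocyte against macrophage-like nuclei (4). Diet called 3322 genes with no filter, 3582 with DESeq2 and 4403 by Storey's q-value. Replicate numbers 1 and 2 occur in both diets, but the deviations of same-numbered libraries correlated at -0.12 and -0.20, so they are shared names only; with the replicate block diet called 1937 genes in hepatocyte nuclei, 4 members in pericentral nuclei, 156 genes and 1 member in endothelial-like and 189 genes and 1 member in macrophage-like nuclei, and in hepatocyte nuclei it turned Ddit3 to 0.63, as library totals did to 0.25. At least 2 class markers gave 1 member in endothelial-like nuclei. Without mixed nuclei the interaction called 466 genes and 2 members, zone in MASH 1102 and 1, and the Gdf15 split 0 members. The interaction called 3 members between narrower outer zones, 2 with RLE and 2 without nuclei over 5% mitochondrial UMIs. At 1000 UMIs the Gdf15 split called 49 genes and 0 members (9 genes by diet), the Fgf21 split 3 genes (0 by diet, 926 at an unadjusted p under 0.05) with Ddit3 at -0.10. Without periportal nuclei the Gdf15 split called 60 genes and 1 member (14 by diet), and another seed gave 1 member, and 5 genes for the Fgf21 split by diet. RLE and library totals gave 23 and 25 genes for the Fgf21 split (1 member with totals) and 5 and 7 by diet. Among single members, leaving out 1 library moved diet in Ddit3 from -0.54 to 0.57, the interaction of Trib3 from -0.57 to 0.11, zone in MASH of Atf3 from -0.16 to 0.21 and of Ddit3 from -0.044 to 0.18, the Gdf15 split by diet of Atf4 from -0.046 to 0.19 and of Ddit3 from -0.024 to 0.39, the Fgf21 split by diet of Trib3 from -0.35 to 8.09, Trib3 against endothelial-like nuclei from -0.28 to 0.48 and Atf3 against stellate-like nuclei from -0.41 to 0.88. The causes were not tested. Of the other values of single members, 780 kept direction and side of the threshold, 68 lost it and 32 gained it.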

Other observations

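Other secreted factors of the list also changed their zone pattern with diet. Of 16 other hepatokines 5 shifted toward the pericentral side in MASH and 3 toward the periportal side, where 5.23% of all genes were called. The lipase regulators Angptl8 (1.49, SE 0.18, edgeR adjusted p 0.000131) and Angptl4 (0.60), the IGF-binding protein gene Igfbp1 (0.82) and the selenium carrier gene Selenop (0.46) were among those that shifted the way Fgf21 did. Enho (-6.70), the iron hormone Hamp (-1.58, adjusted p 9.12e-05) and Igf1 (-0.41) shifted the other way. Of 13 immediate-early and heat shock genes, Egr1 (1.66), Fos (1.56) and Jun (0.84) shifted toward the pericentral side and Ier3 (-2.17) away from it. Of 34 ATF4 targets only Atf5 shifted toward the pericentral side (0.46, adjusted p 0.0229), with Slc1a5 (-1.33) and Cth (-0.89) shifting away, and the coactivator gene Ppargc1a shifted toward it (0.90).

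Over the 15 sums of 5 libraries and 3 zones, the levels most like those of Fgf21 among 10521 genes were Fuca2 (Pearson r 0.983), Rap1gap (0.978), Epn2 (0.976), Zfp608 (0.975) and Plekha1 (0.975), and those most like Gdf15 were Slc16a12 (0.965), Clasp1 (0.964), Med15 (0.962), Arhgap18 (0.961) and Mybl1 (0.957). The sums share libraries, depth and diet, and the values are descriptions.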
